A study of Mus musculus with 5 samples.

Results

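The enzymes that make and break down proline, and those that interconvert glutamine and glutamate, were followed through 8 genes (Aldh18a1, Pycr1, Pycrl, Prodh, Oat, Glul, Glud1 and Gpt2). They were chosen by symbol and for their step in the pathway, and they are 8 of 55335 genes in the table. All 8 passed the filter on low counts and stood among the 16380 genes tested. Primary mouse lung fibroblasts, the matrix-making mesenchymal cells of the lung, were cultured for 24 h with 5 ng/mL of TGF-β1 in 3 libraries and with vehicle in 2. TGF-β1 is the cytokine most used to push cultured fibroblasts towards myofibroblasts. The series calls the libraries independent biological replicates. Neither the strain, sex or age of the mice, nor whether the replicates came from separate animals or separate dishes, is given in the sources used here. The p-values therefore measure the spread between these 5 libraries.

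Proline makes up an unusually large share of collagen, so cells that secrete matrix need much of it. Proline is made in mitochondria and cytosol from glutamate. Pyrroline carboxylate synthase (Aldh18a1) turns glutamate into pyrroline carboxylate, and the reductases Pycr1 and Pycrl turn that into proline with NADPH or NADH. Ornithine aminotransferase (Oat) joins the same intermediate to ornithine, in either direction. Proline dehydrogenase (Prodh) and pyrroline carboxylate dehydrogenase (Aldh4a1) run the way back to glutamate. Glutamine synthetase (Glul) makes glutamine from glutamate. Glutamate dehydrogenase (Glud1) and the alanine aminotransferase Gpt2 link glutamate to 2-oxoglutarate.

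With TGF-β1 the first and the last enzyme of proline synthesis rose, and so did Gpt2. Aldh18a1 was 1.59-fold, Pycr1 2.06-fold and Gpt2 1.37-fold higher, and Glul was 1.17-fold lower. Pycrl, Prodh, Oat and Glud1 did not pass the test. Thus 3 of 8 genes were higher, where 21.3% of all tested genes were, and 1 of 8 was lower, where 23.2% were. Taken in either direction, 4 of 8 were called against 44.5% of all tested genes, so the number of calls was near the background. The median log2 change of the 8 was 0.09, against 0.00 for all tested genes. The 2 groups did not overlap in 6 of the 8 genes, and 64.6% of all tested genes had groups that did not overlap.

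Libraries held 34283288 to 43163967 counts. On the log2 CPM scale, where CPM is a gene's count divided by the library total and put on a common scale, Pearson's r was at least 0.987 inside a group and at most 0.960 across groups. On the second principal component TGF-β1 replicate 3 lay at 35.9, where replicates 1 and 2 lay at −10.6 and −24.5. Fibroblast markers such as Col1a1, Col1a2, Pdgfrb and Vim were present in all libraries, and of 11 tested 5 rose and 6 fell. Those named rose, as did Fn1. Pdgfra, Dcn, S100a4, Thy1 and Col3a1 fell (log2 −2.02, −1.90, −1.82, −0.93 and −0.49). Lum also fell (log2 −2.23) and was low, at 0.559 CPM in controls and 0.117 CPM with TGF-β1. The 8 epithelial markers summed to 3.28 and 3.65 CPM in the controls and 5.07 to 5.69 CPM with TGF-β1. Of 3 tested, Cdh1, the epithelial cadherin, rose from a mean of 2.03 to 3.92 CPM (adjusted p = 0.00261), while Ager and Foxj1 gave no call. Sftpc, Sftpb and Scgb1a1 had 0 counts in each of the 5 libraries. The 6 endothelial markers summed to 2.53 to 3.69 CPM, with no call in the 4 tested. The 11 mesothelial markers summed to 1482 and 1572 CPM in the controls and 249 to 265 CPM with TGF-β1, and 10 of the 11 tested fell. The 9 leukocyte markers, mostly the macrophage gene Lyz2, summed to 2404 and 2485 CPM in the controls and 1440.0 to 1473 CPM with TGF-β1. Of 7 of these tested, 6 fell and Ptprc, the pan-leukocyte antigen, rose, while the T cell gene Cd3e had 0 counts throughout. The 6 smooth muscle and pericyte markers summed to 8411 and 8785 CPM in the controls and 7600 to 7640 CPM with TGF-β1. The pericyte gene Cspg4 was 11.1-fold higher, the contractile genes Myh11, Des and Acta2 fell (log2 −0.64, −0.41 and −0.12), and Cnn1 and Rgs5 gave no call. The part of these markers in the results below was not tested. In bulk RNA, fewer cells of a type and less RNA per cell cannot be told apart.

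Gene levels below are CPM scaled between libraries by TMM (trimmed mean of M-values), with mean ± SD for n = 2 controls and n = 3 TGF-β1 libraries. A log2 change is that of TGF-β1 relative to control, with its standard error (SE). Adjusted p-values come from edgeR's quasi-likelihood test over all 16380 genes, with a threshold of 0.05. With 2 and 3 libraries the smallest p of an exact permutation test is 0.1, so the calls rest on the spread shared across genes.

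**Figure D1:**
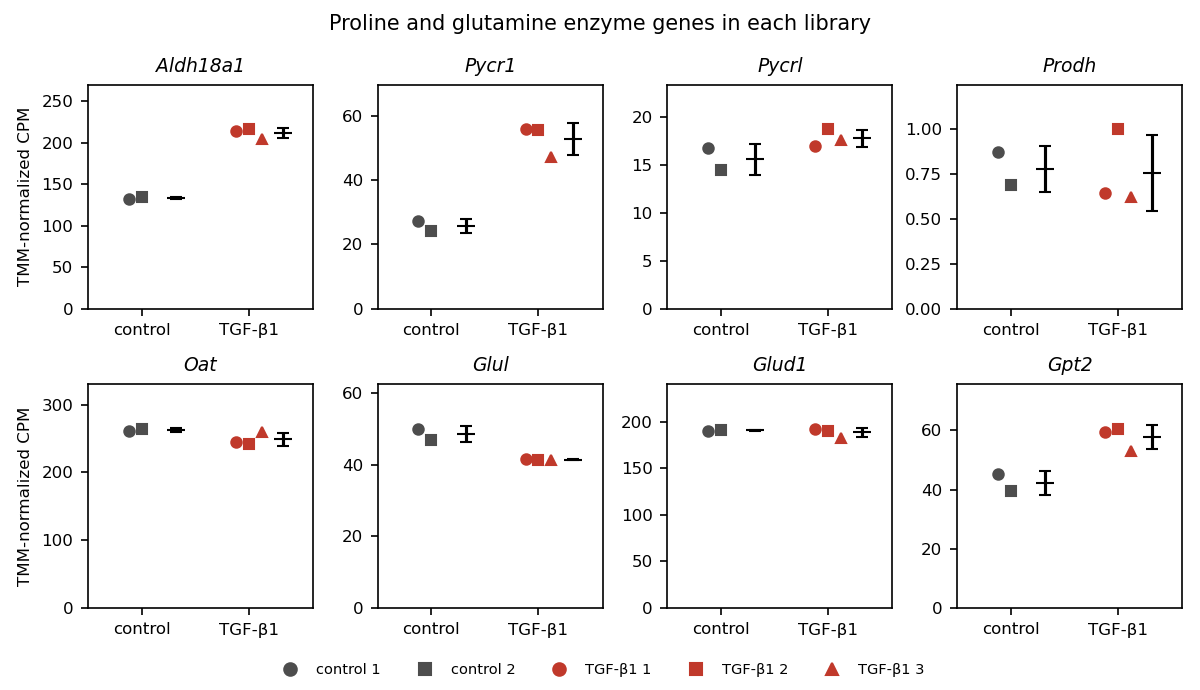
Level of each of the 8 genes (TMM-normalized CPM, linear axes from 0) in the 2 control and 3 TGF-β1 libraries; black bars give mean and SD. Aldh18a1, Pycr1 and Gpt2 lie higher in all 3 TGF-β1 libraries than in either control, Glul lies lower, and the groups overlap for Prodh and Glud1.

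Aldh18a1 (ENSMUSG00000025007, chromosome 19, 40550257 to 40588463 of GRCm38, minus strand) commits glutamate to proline and ornithine. Its level was 132 and 134 CPM in the controls and 215, 216 and 205 CPM with TGF-β1. The control libraries were nearly equal, and the lowest TGF-β1 library, replicate 3, was far above both. The mean went from 133 ± 1.46 CPM in controls to 212 ± 5.99 CPM with TGF-β1 (log2 change 0.67, SE 0.0369, adjusted p = 6.66e-07). Of the 8 genes it had the smallest adjusted p. Against a null of a 1.5-fold change, its adjusted p was 0.051.

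Pycr1 (ENSMUSG00000025140, chromosome 11, 120635712 to 120643769, minus strand) encodes a mitochondrial pyrroline carboxylate reductase, the enzyme of the last step to proline. The controls held 27.2 and 24.2 CPM and the TGF-β1 libraries 55.7, 55.6 and 47.1 CPM. Replicate 3 was the lowest of the TGF-β1 libraries and still well above the higher control. The mean rose from 25.7 ± 2.18 CPM in controls to 52.8 ± 4.92 CPM with TGF-β1 (log2 change 1.04, SE 0.0883, adjusted p = 1.25e-05). This was the largest fold change of the 8 genes, and the only one among them to pass against a null of a 1.5-fold change.

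Pycrl (ENSMUSG00000022571, chromosome 15, 75916477 to 75921560), now called Pycr3, encodes the cytosolic reductase. It held 16.7 and 14.5 CPM in the controls and 17.0, 18.7 and 17.6 CPM with TGF-β1. The groups did not overlap, but the gap was no wider than the difference between the controls (log2 change 0.19, 95% interval −0.02 to 0.40, adjusted p = 0.127). The intervals of Pycr1 (0.84 to 1.24) and of Pycrl did not meet. Both genes serve the last step to proline.

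The sequence just before the start site of each gene that rose is given here, to show which short motifs the 3 share or do not share. The 250 bases were taken from RefSeq (GRCm38.p6), where 7 of the 8 genes matched, and are written 5′ to 3′ on the gene's strand. Capitals mark the letters TGATGNAA, the core of the composite element bound by ATF4 with C/EBP factors, and CACGTG, the E-box bound by MYC and related factors.
Aldh18a1 (chr19:40588464-40588713, strand −): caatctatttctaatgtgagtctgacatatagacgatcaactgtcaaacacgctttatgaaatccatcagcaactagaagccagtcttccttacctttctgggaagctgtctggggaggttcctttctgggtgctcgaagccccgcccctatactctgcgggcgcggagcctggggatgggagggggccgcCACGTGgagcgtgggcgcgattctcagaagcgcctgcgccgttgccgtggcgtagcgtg
Pycr1 (chr11:120643749-120643998, strand −): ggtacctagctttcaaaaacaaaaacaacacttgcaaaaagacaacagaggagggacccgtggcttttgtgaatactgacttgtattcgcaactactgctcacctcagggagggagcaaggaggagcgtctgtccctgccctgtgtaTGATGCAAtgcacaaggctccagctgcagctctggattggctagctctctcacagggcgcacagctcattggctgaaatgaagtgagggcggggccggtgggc
Gpt2 (chr8:85492326-85492575, strand +): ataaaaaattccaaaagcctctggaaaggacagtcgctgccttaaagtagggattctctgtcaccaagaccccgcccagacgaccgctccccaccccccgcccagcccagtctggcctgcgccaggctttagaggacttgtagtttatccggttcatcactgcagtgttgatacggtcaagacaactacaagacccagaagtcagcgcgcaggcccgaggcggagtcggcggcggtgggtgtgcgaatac

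Searched on both strands over 250 bases before to 50 after the start, Pycr1 held TGATGCAA beginning 103 bases before it, and was the 1 of 7 matched genes with this motif, which 3.97% of all 32851 promoters hold. Aldh18a1 held CACGTG beginning 59 bases before its start, again the 1 of 7, against 7.15% of all promoters. In Gpt2 neither motif was found in this window. The SMAD palindrome GTCTAGAC was in 0 of 7 and in 0.213% of all promoters. The SMAD half-site CAGACA was in 4 of 7, namely Aldh18a1, Pycr1, Oat and Glul, against 21%. The general promoter motif CCAAT was in 3 of 7, Pycr1, Oat and Glul, against 37.4%. None of these matches overlapped another in Pycr1 or Aldh18a1. A match describes these letters only and does not show that a factor binds.

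On the degrading side, Prodh was barely detected and its partner Aldh4a1 fell. Prodh (ENSMUSG00000003526, chromosome 16, 18060357 to 18090203) encodes the enzyme that begins proline breakdown. It had counts of 31 and 29 in controls 1 and 2 and of 26, 42 and 24 after TGF-β1, or 0.871, 0.690, 0.646, 1.00 and 0.621 CPM. The groups overlapped, with TGF-β1 replicate 2 the highest of all and replicate 3 the lowest. The exact Poisson 95% interval, which covers counting error only, was 0.592 to 1.24 CPM in control 1 and 0.398 to 0.923 CPM in TGF-β1 replicate 3. The log2 change was −0.04 with a 95% interval of −0.86 to 0.78 (adjusted p = 0.944). Changes within that interval, in either direction, remain possible at this depth. The sign of the log2 change turned without control 1 (0.14), without TGF-β1 replicate 1 (0.07) and without replicate 3 (0.08).

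Aldh4a1, which is not among the 8, finishes the route from proline to glutamate and also serves hydroxyproline breakdown. It held 45.7 and 39.5 CPM in the controls and 31.0, 33.4 and 31.4 CPM with TGF-β1, with no overlap. The mean fell from 42.6 ± 4.33 CPM in controls to 31.9 ± 1.304 CPM with TGF-β1 (log2 change −0.41, SE 0.0719, adjusted p = 0.00127). A gene annotated across its exons, Gm21969, held 0.587% as many counts. Prodh2, the hydroxyproline dehydrogenase, had 0 counts in all 5 libraries, a count that allows up to 0.0713 to 0.0843 CPM per library at a limit of 3 counts.

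**Figure D2:**
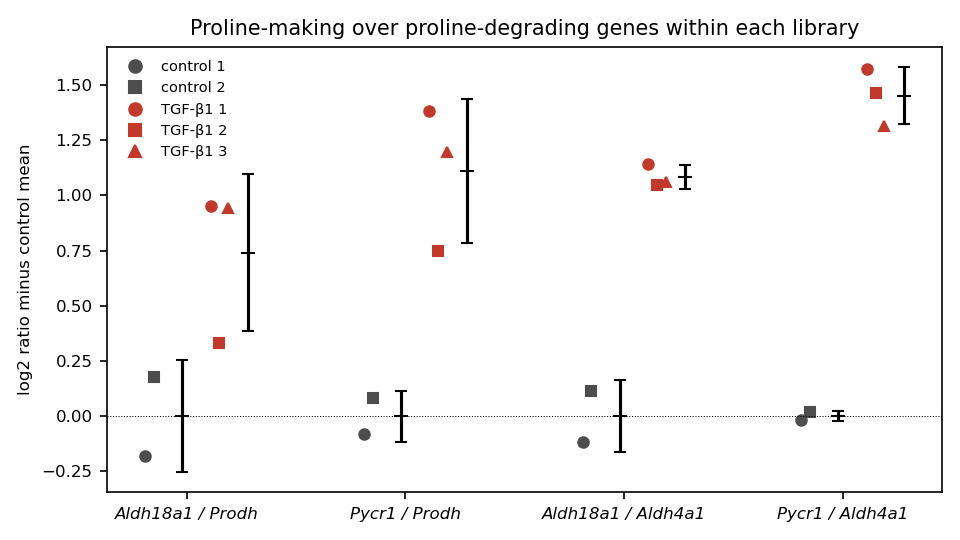
Log2 ratio of a proline-making gene (Aldh18a1 or Pycr1) to a proline-degrading gene (Prodh or Aldh4a1) within each library, minus the mean of the controls; black bars give mean and SD. All 3 TGF-β1 libraries lie above both controls in each of the 4 ratios, and the ratios to Prodh spread more widely.

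Set against each other within a library, where scaling between libraries drops out, Aldh18a1 and Pycr1 gained on Aldh4a1. Both are making genes that rose, and Pycrl, which did not pass, was not set in a ratio. Per exon length, Aldh18a1 was 3.49 and 4.10 times as abundant as Aldh4a1 in the controls and 8.35, 7.80 and 7.89 times with TGF-β1. Pycr1 was below Aldh4a1 in the controls, at 0.744 and 0.762 of its level, and above it with TGF-β1, at 2.24, 2.08 and 1.87 times. Neither pair of groups overlapped. The mean log2 ratio rose by 1.08 for Aldh18a1 over Aldh4a1 (SD 0.163 in controls and 0.0528 with TGF-β1) and by 1.45 for Pycr1 over Aldh4a1 (SD 0.0243 and 0.129).

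The same ratios to Prodh were large and less certain. Since Prodh gave no call, their rise was mainly that of Aldh18a1 and Pycr1. Aldh18a1 was 291 and 373 times as abundant as Prodh per exon length in the controls and 637, 415 and 634 times with TGF-β1. The groups did not overlap, but TGF-β1 replicate 2, with the most Prodh counts, lay near the higher control. These multiples depend on the length used, because the exons of Prodh cover 7797 bases in union and 2386 in its main transcript. By main transcripts the controls held 0.365 and 0.289 CPM per kb of Prodh and 37.5 and 38.1 of Aldh18a1. The multiples were smaller on that length. The mean log2 ratio moved by 0.74 for Aldh18a1 over Prodh and by 1.11 for Pycr1 over Prodh. Without control 1 the Aldh18a1 over Prodh value was 0.56, and without TGF-β1 replicate 2 it was 0.95. These ratios are given with no test, since the genes were chosen with earlier results of these data known.

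**Figure D3:**
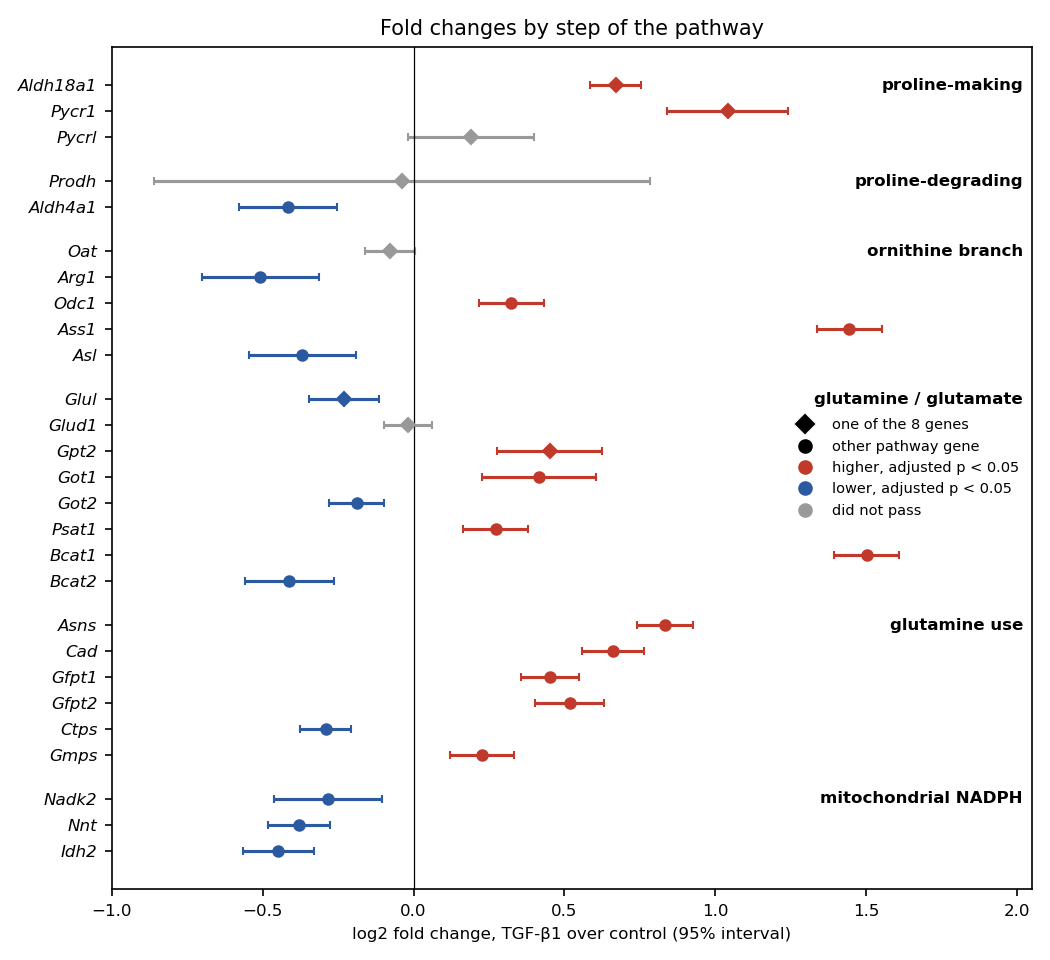
Log2 fold change (TGF-β1 over control) with its 95% interval for genes of the pathway, grouped by step; diamonds are the 8 genes, circles other pathway genes, red higher, blue lower and grey not passing at an adjusted p of 0.05. Aldh18a1 and Pycr1 lie to the right of 0 and Aldh4a1 to the left, and the interval of Prodh spans from −0.86 to 0.78.

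Oat (ENSMUSG00000030934, chromosome 7, 132557478 to 132576398) exchanges ornithine and pyrroline carboxylate. It was the most abundant of the 8 per exon length, at 111 CPM per kb in controls, ahead of Glud1 (45.3) and Aldh18a1 (32.8). Its level was 261 and 265 CPM in the controls and 245, 242 and 259.8 CPM with TGF-β1. TGF-β1 replicate 3 reached almost to the controls, while replicates 1 and 2 lay below. The difference did not pass (log2 change −0.08, 95% interval −0.16 to 0.00, adjusted p = 0.114). It passed without TGF-β1 replicate 3 (log2 change −0.11, adjusted p = 0.00878) and with library totals in place of TMM (−0.18, adjusted p = 0.0034). Per exon length Aldh18a1 stood at 0.294 of the Oat level in both controls and at 0.509, 0.518 and 0.458 with TGF-β1.

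Genes that supply or use ornithine and arginine were called in both directions. Ass1, argininosuccinate synthase, rose from 34.1 ± 0.962 CPM in controls to 92.7 ± 1.57 CPM with TGF-β1 (log2 change 1.44, adjusted p = 2.2e-08). Its value is uncertain because a near-identical copy, Gm5424, held 11.9% as many counts. Asl, the next enzyme to arginine, fell from 28.2 ± 2.67 CPM in controls to 21.9 ± 0.948 CPM with TGF-β1 (log2 change −0.37, adjusted p = 0.00411), a call lost without control 1 (adjusted p = 0.059). Arg1, the arginase that makes ornithine from arginine, fell from 42.6 ± 0.604 CPM in controls to 29.9 ± 3.44 CPM with TGF-β1 (log2 change −0.51, adjusted p = 0.0011). In mice Arg1 is also a marker of some macrophages, and the summed leukocyte markers given above fell in the same libraries. Their part in the Arg1 difference was not tested. Of 10 tested genes in this list, 3 rose, 3 fell and 4 gave no call, with a median log2 change of −0.01, where 21.3% of all tested genes rose and 23.2% fell. Without control 1 the list held 2 higher and 1 lower, and without control 2 it held 2 of each. In each other library's absence it held 2 higher and 3 lower.

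Glul (ENSMUSG00000026473, chromosome 1, 153899944 to 153909723) joins ammonia to glutamate to make glutamine. It held 50.2 and 47.0 CPM in the controls and 41.6, 41.3 and 41.3 CPM with TGF-β1. The TGF-β1 libraries were nearly equal and all below the lower control. The mean fell from 48.6 ± 2.22 CPM in controls to 41.4 ± 0.129 CPM with TGF-β1 (log2 change −0.23, SE 0.0515, adjusted p = 0.0054). Without control 1, the higher of the controls, the difference was −0.18 and no longer passed (adjusted p = 0.0631). Glul is expressed by macrophages and many other cells too, and the part of the lower leukocyte and mesothelial markers in this small difference was not tested.

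Gls2, a glutaminase of low level here and a known p53 target, went from 0.948 CPM in controls to 1.72 CPM with TGF-β1 (log2 change 0.86, adjusted p = 0.0252). Its call was lost without control 1 (adjusted p = 0.056), without control 2 (0.136) and without TGF-β1 replicate 1 (0.0791). Gls2 is uncertain, since its exons overlap the more abundant Spryd4 on the opposite strand.

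Glud1 (ENSMUSG00000021794, chromosome 14, 34310727 to 34345265) releases ammonia from glutamate and did not pass. It held 190.4 and 191 CPM in the controls and 193, 190.1 and 183 CPM with TGF-β1, and the groups overlapped. The log2 change was −0.02 with a 95% interval of −0.10 to 0.06 (adjusted p = 0.718). With library totals it was −0.12 and passed (adjusted p = 0.0221), and without TGF-β1 replicate 3 it was 0.0041. Its closest annotated copy, the pseudogene Glud-ps, held 0.199% as many counts.

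Gpt2 (ENSMUSG00000031700, chromosome 8, 85492576 to 85527560) is the mitochondrial alanine aminotransferase and moves nitrogen from glutamate to pyruvate. It held 45.1 and 39.5 CPM in the controls and 59.4, 60.6 and 53.2 CPM with TGF-β1. Replicate 3 was again the lowest of the TGF-β1 libraries, and above both controls. The mean rose from 42.3 ± 3.99 CPM in controls to 57.7 ± 4.01 CPM with TGF-β1 (log2 change 0.45, SE 0.0765, adjusted p = 0.00113). Its cytosolic relative Gpt, also named after its values were seen, was at 3.40 CPM in both controls and 2.68 to 3.31 CPM with TGF-β1 and did not pass (adjusted p = 0.348).

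The aminotransferases for branched-chain amino acids and for aspartate were called in their cytosolic and mitochondrial forms. The alanine pair differed, since the cytosolic Gpt gave no call and the mitochondrial Gpt2 rose. Of 11 tested genes in the list of glutaminases and aminotransferases, 5 rose, 3 fell and 3 gave no call. Over all tested genes 21.3% rose and 23.2% fell. Bcat1, the cytosolic branched-chain aminotransferase, rose from 60.2 ± 0.924 CPM in controls to 170.4 ± 7.49 CPM with TGF-β1 (log2 change 1.502, adjusted p = 1.62e-08). Its mitochondrial counterpart Bcat2 is named here after its value was seen, and fell from 30.4 CPM in controls to 22.8 CPM with TGF-β1 (log2 change −0.41, adjusted p = 0.000732). Got1, the cytosolic aspartate aminotransferase, rose (log2 change 0.42, adjusted p = 0.00297). The mitochondrial form Got2, also named after its value was seen, fell (log2 change −0.19, adjusted p = 0.00435), with a near-identical pseudogene, Got2-ps1, at 5.54% of its counts.

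Among the enzymes that spend the amide nitrogen of glutamine, 6 of 10 tested rose, 2 fell and 2 gave no call, beside 21.3% and 23.2% of all tested genes that rose and fell. Their median log2 change was 0.27, against 0.00 for all tested genes. Asns, asparagine synthetase, rose from 131 ± 1.35 CPM in controls to 234 ± 9.34 CPM with TGF-β1 (log2 change 0.83, adjusted p = 3.02e-07). Cad, which opens pyrimidine synthesis, rose from 60.3 ± 0.172 CPM in controls to 95.4 ± 2.87 CPM with TGF-β1 (log2 change 0.66, adjusted p = 3.1e-06). Gfpt2, an enzyme of hexosamine synthesis, rose from 41.0 CPM in controls to 58.7 CPM with TGF-β1 (log2 change 0.52, adjusted p = 3.1e-05). With library totals 4 of the 10 were higher and 2 lower.

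The mitochondrial steps of proline synthesis draw on NADPH, and 3 genes for its supply there fell. Nadk2, the mitochondrial NAD kinase, went from 17.8 ± 0.413 CPM in controls to 14.6 ± 0.437 CPM with TGF-β1 (log2 change −0.28, adjusted p = 0.0161). Its call was lost without control 1 (adjusted p = 0.0971), without control 2 (0.0605) and without TGF-β1 replicate 2 (0.062). Idh2, the mitochondrial NADP-linked isocitrate dehydrogenase, fell from 59.0 ± 0.900 CPM in controls to 43.2 ± 1.68 CPM with TGF-β1 (log2 change −0.45, adjusted p = 0.000101). Nnt, the transhydrogenase, fell from 103.5 ± 4.24 CPM in controls to 79.5 ± 1.997 CPM with TGF-β1 (log2 change −0.38, adjusted p = 0.000126). Slc25a11, the 2-oxoglutarate and malate carrier, fell (log2 change −0.30, adjusted p = 0.00118) and is uncertain through an exon overlap with Rnf167. Of 9 tested genes of this list, 1 rose, 5 fell and 3 gave no call, with a median log2 change of −0.22, and the shares over all tested genes were 21.3% higher and 23.2% lower. In the list 0 were higher and 3 lower without control 1, without control 2 or without TGF-β1 replicate 2. 

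Xpnpep1, a peptidase that acts before proline, rose from 105 ± 1.24 CPM in controls to 131 ± 5.16 CPM with TGF-β1 (log2 change 0.32, adjusted p = 0.000278). Pepd, the prolidase that frees proline from collagen dipeptides, is likewise named after its values were seen and did not pass, at 28.1 CPM in controls and 28.8 CPM with TGF-β1 (adjusted p = 0.756). Of 6 tested in this list, 1 rose, 1 (Aldh4a1) fell and 4 gave no call, with 44.5% of all tested genes called. In the carriers for glutamine, glutamate and proline at the cell surface, 6 of 14 tested genes rose, 1 fell and 7 gave no call. That is 7 of 14 called in either direction, near the 44.5% of all tested genes. By direction, 21.3% of all tested genes rose and 23.2% fell, so the split of the carriers was unlike the background. Slc7a11, the cystine and glutamate exchanger, rose from 8.67 ± 0.764 CPM in controls to 19.4 ± 0.305 CPM with TGF-β1 (log2 change 1.16, adjusted p = 7.62e-06). Its value is uncertain, because a stretch of 585 bases is 92.5% identical to a transcript annotated to Tuba1b, a gene with 118369 counts against 3010. Slc7a5, the large neutral amino acid carrier that trades out glutamine, rose from 133 ± 3.61 CPM in controls to 221 ± 6.98 CPM with TGF-β1 (log2 change 0.73, adjusted p = 5.56e-07). The glutamate carrier Slc1a3 was low and went from 2.19 CPM in controls to 1.22 CPM with TGF-β1 (adjusted p = 0.0455), a call lost without control 1, control 2, TGF-β1 replicate 1 or TGF-β1 replicate 2 (adjusted p = 0.0806, 0.268, 0.122 and 0.12). Without TGF-β1 replicate 3, 3 carriers were lower.

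**Figure D4:**
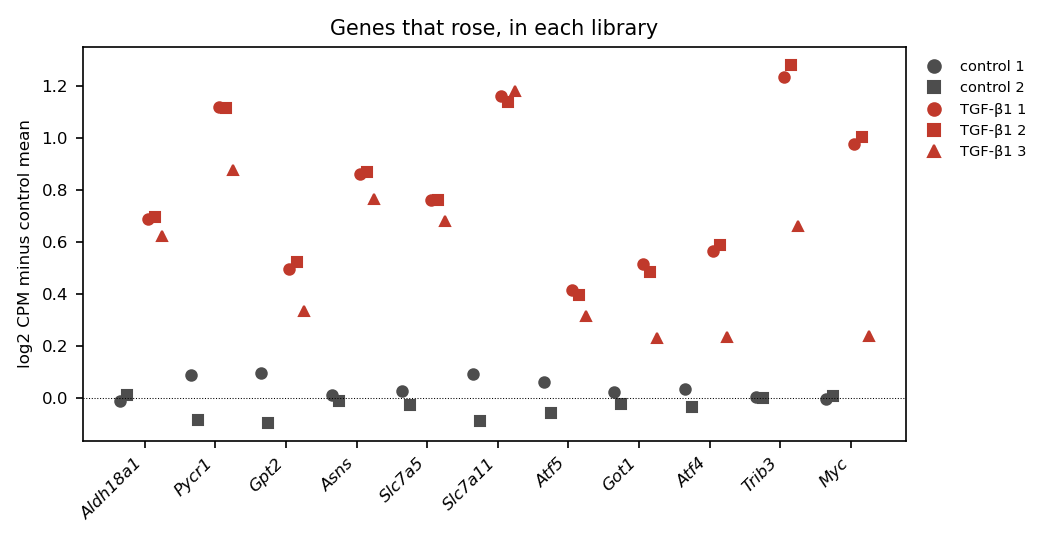
Log2 CPM of 11 genes that were higher with TGF-β1, in each library, minus the mean of the controls. TGF-β1 replicate 3 (triangles) lies below replicates 1 and 2 in 10 of the 11, by the most in Trib3 and Myc, and just above them in Slc7a11.

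Regulators known for these genes were compared, and Atf4, Trib3 and Myc are given library by library. Atf4, encoding the factor that drives amino acid synthesis genes under stress, is named here after its values were seen and held 228 and 217 CPM in the controls and 329, 334 and 262 CPM with TGF-β1 (log2 change 0.47, adjusted p = 0.00239). Trib3, an ATF4 target, held 31.96 and 31.89 CPM in the controls and 75.1, 77.6 and 50.5 CPM (log2 change 1.09, adjusted p = 0.000474). Myc held 30.4 and 30.6 CPM and 60.0, 61.2 and 35.9 CPM (log2 change 0.78, adjusted p = 0.00923), a call lost without control 1 (adjusted p = 0.0788) or control 2 (0.0742). In all 3, TGF-β1 replicate 3 lay nearer the controls than replicates 1 and 2 did. Hif1a fell from 549 ± 5.30 CPM in controls to 395 ± 1.62 CPM with TGF-β1 (log2 change −0.47, adjusted p = 4.18e-07). Of 8 tested regulators, 5 rose, 1 fell and 2 gave no call, where 21.3% of all tested genes rose and 23.2% fell, and 3 were higher without control 2.

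The step down from replicates 1 and 2 to replicate 3 differed in size between the genes. On the log2 scale it was −0.75 in Myc, −0.60 in Trib3 and −0.34 in Atf4. It was −0.24 in Pycr1, −0.18 in Gpt2 and −0.07 in Aldh18a1, and it was 0.09 in Oat, 0.42 in the glutamine carrier Slc38a2 (named after its values were seen) and 0.03 in Slc7a11. Over all tested genes the median was −0.00, with 5th and 95th percentiles of −0.36 and 0.37. Those percentiles had 0.5 CPM added before the logarithm, and the differences of the named genes did not. Apart from Prodh, the differences in the 8 genes were within that range. Prodh (−0.37) rests on few counts, where the added 0.5 CPM matters, so it cannot be placed against that range.

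The genes whose pattern over the 5 libraries lay nearest to Aldh18a1 were Otud4, Pmaip1 and Rheb, out of 10921 genes with a mean of at least 5 CPM. Their distances in log2 CPM from Aldh18a1 were 0.0335, 0.0342 and 0.0394, and their log2 changes 0.65, 0.68 and 0.69. Nearest to Glul, which was taken because Prodh did not exceed 1 CPM in any library, were Narfl (0.027), Ahnak2 (0.0277) and Vps52 (0.0359), with log2 changes of −0.24, −0.24 and −0.22. These distances describe 5 libraries of 2 groups and no more.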

How the data were processed

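RNA from primary mouse lung fibroblasts was made into strand-specific polyA libraries, per the labels' protocols. The authors deposited whole-number counts per Ensembl gene for 5 libraries, with no scaling. The submitters' processing notes name STAR 2.5.3a, StringTie 1.3.1c and mm10 without their roles; no source used here gives the counting tool, strand setting or annotation. IDs were matched to GENCODE M21 (GRCm38), which named 55154 of 55335; coordinates are 1-based and span the gene. Similar copies were sought with BLAST 2.17.0 (at least 90% identity over 500 bases); no copy or overlapping gene held over 0.2% of the counts of any of the 8 genes. Level per length used the union of a gene's exons.

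Samples were grouped by title. Genes were filtered with filterByExpr, scaled with TMM and tested with edgeR 4.0.16 (quasi-likelihood, group alone, two-sided, Benjamini-Hochberg over 16380 genes, threshold 0.05) in R 4.3.3, and the model was tested on simulated data. SE is the log2 fold change over the square root of F. Intervals use SE and the t distribution. Alternatives were scaling by library totals, upper quartiles or median ratios, other low-count filters, DESeq2 1.42.0, limma-voom 3.58.1, a null of 1.5-fold, a replicate block and leaving out each library, where a lone control is taken to have the spread of the TGF-β1 libraries. Log2 CPM used a prior count of 2. Python 3.11.15, pandas 2.3.3, numpy 2.4.6, scipy 1.17.1 and matplotlib 3.10.9 were used.

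The genes and lists were chosen with earlier results of these data known. Named in every case were the 8 genes and Aldh4a1, Prodh2 and Nadk2, then up to 3 called genes per list with a mean of at least 1 CPM, by size of change. Some results are not reported here.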

Additional observations from a re-analysis of the deposited data

How the results depend on the processing

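Aldh18a1, Pycr1 and Gpt2 stayed higher and past the threshold under all alternatives run, except that against a null of a 1.5-fold change Aldh18a1 and Gpt2 did not pass. Against that null 1 of the 8 genes was higher and 0 lower, with 563 higher and 1223 lower over all genes. With library totals, which moved the median log2 fold change by −0.10, 3 of the 8 were lower (Glul, Oat and Glud1), and 2325 genes were higher in all, so that the higher share of calls went from 47.9% to 32.1%. Leaving out 1 library at a time gave 0 to 2 lower genes among the 8, Prodh −0.29 to 0.14, Glud1 −0.0287 to 0.0041 and Aldh18a1 over Aldh4a1 0.97 to 1.20 (log2). Same-numbered samples were nearly unrelated in their deviations from the group mean (correlations of 0.0159 and 0.0161). With only 2 controls, whose deviations mirror each other, this cannot show whether the numbers pair samples. With the replicate number as a block 2 of the 8 were lower (Oat joined), and Prodh was 0.0683 and Glud1 0.0039. The cause of these shifts was not tested. Prodh gave no value with a filter of over 1 CPM in at least 2 libraries. With 24 to 42 counts, depth limits what can be said of Prodh.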
